A study of Mus musculus with 6 samples.

Results

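Mcpt1 and Mcpt2, the genes of 2 proteases of mucosal mast cells, and Serpina3n, the gene of a secreted serine protease inhibitor, were followed over 6 arrays of mouse ileal crypt base. These 3 genes were chosen by their symbols in a table that the authors had selected on the difference between genotypes, and with that difference known. Each has 1 probe set in that table. The array holds 28853 probe sets, and those outside the table are unnamed here. RNA came from fixed, paraffin-embedded ileum in which the crypt base had been laser-captured by its position, to enrich for Paneth cells. All mice were 8 weeks old and of the C57BL/6J background. There were 3 arrays from wild type (WT) animals and 3 from Nod2-/- animals, which lack Nod2, a receptor for bacterial cell wall fragments. The way the Nod2 allele was made is not given in the sources used here, and the labels do not tie a capture to a single mouse.

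Mucosal mast cells lie in and under the gut epithelium and store serine proteases in granules. In mice Mcpt1 is a chymase released into the lumen and the blood, for example during worm infection, where it loosens the junctions between epithelial cells, and Mcpt2 is its close relative in the same granules. Serpina3n belongs to the serpins, proteins that trap serine proteases by offering a bait loop. It is an acute phase protein that in mice inhibits granzyme B and neutrophil elastase, and its human relative inhibits chymase and cathepsin G.

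The probe set of Mcpt1 (10415431, Entrez gene 17224) lies on the plus strand of chromosome 14, from 56636801 to 56639228 in mouse build mm9. That of Mcpt2 (10415438, Entrez gene 17225) lies on the same strand, from 56660960 to 56663471. Both genes are part of the chymase locus, where Cma1, Cma2, Mcpt9, Mcpt4, Mcpt8 and Ctsg are neighbours in RefSeq. Serpina3n (probe set 10398075, Entrez gene 20716) lies on the plus strand of chromosome 12, from 105644939 to 105652539, at the edge of a row of Serpina3 genes. The intervals are those of the authors' table, which does not say which exons the probes cover.

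To show what lies before the genes, the 250 bases ahead of the transcript start are printed for the 2 of 3 genes with an entry in the RefSeq promoters of build GRCm38.p6, on the plus strand. They are chr14:56017714-56017963 for Mcpt1 and chr12:104406458-104406707 for Serpina3n, in coordinates that do not match those of mm9 above. Capitals mark a GATA motif (AGATAA or its variant AGATAG, as well as TGATAA or its variant TGATAG, on either strand) or a TATA motif (TATAAA, on either strand).
Mcpt1: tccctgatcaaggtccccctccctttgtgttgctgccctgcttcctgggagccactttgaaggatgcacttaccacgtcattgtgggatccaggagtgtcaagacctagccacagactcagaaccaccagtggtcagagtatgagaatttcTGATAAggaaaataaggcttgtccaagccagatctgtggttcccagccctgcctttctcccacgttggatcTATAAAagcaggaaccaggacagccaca
Serpina3n: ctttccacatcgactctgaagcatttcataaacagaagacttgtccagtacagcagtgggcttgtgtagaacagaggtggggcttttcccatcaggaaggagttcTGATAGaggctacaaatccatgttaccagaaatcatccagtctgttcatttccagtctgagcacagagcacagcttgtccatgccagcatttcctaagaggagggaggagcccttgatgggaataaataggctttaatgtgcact

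The Mcpt1 window holds 1 GATA motif, starting 99 bases before the transcript start, and 1 TATA motif, starting 28 bases before it. The Serpina3n window holds 1 GATA motif, starting 145 bases before the start, and 0 TATA motifs. GATA factors drive mast cell development, and a match is only a match of letters. Of 32851 promoter windows of the same length, 26.5% hold a GATA motif and 12.4% a TATA motif. The letters TTCNNNGAA, to which STAT factors can bind, were searched on both strands and are in neither window, against 7.02% of all windows. No marked motif overlaps another.

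The comparison asked how the crypt base of Nod2-/- mice differs from that of WT. Nod2-/- means were higher for all 3 genes, but the proteases and the inhibitor differed in which arrays carried this. Mcpt1 and Mcpt2 were by far highest in Nod2-/- replicate 3. In the other Nod2-/- arrays Mcpt2 was near the WT level and Mcpt1 was above each WT array by less, whereas Serpina3n was higher in each Nod2-/- array than in each WT array. The members were chosen on this contrast, so their differences are a description and carry no test. In bulk samples more cells of a type and more RNA per cell cannot be told apart.

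Mcpt1 was at 4.62, 4.59 and 4.68 (log2 intensity) in WT replicates 1, 2 and 3, and at 5.42, 4.92 and 7.56 in Nod2-/- replicates 1, 2 and 3. The WT arrays lay within 0.09 of each other, the Nod2-/- arrays spanned 2.64, and the groups did not overlap. The means were 5.97 ± 1.40 (SD, n = 3) in Nod2-/- and 4.63 ± 0.05 in WT, a difference of 1.34 or 2.53-fold. Replicate 3 was 7.62-fold above the WT mean, replicate 1 was 1.73-fold above it and replicate 2 was 1.23-fold above it. Without Nod2-/- replicate 3 the fold was 1.46.

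Mcpt2 was at 4.60, 4.83 and 4.64 in WT replicates 1, 2 and 3, and at 4.76, 4.89 and 7.38 in the Nod2-/- replicates in the same order. Nod2-/- replicate 3 stood alone, replicate 1 lay below the highest WT array, and the groups overlapped. The means were 5.68 ± 1.48 (SD, n = 3) against 4.69 ± 0.12, a difference of 0.98 or 1.98-fold. Relative to the WT mean, Nod2-/- replicates 1, 2 and 3 were 1.05-fold, 1.14-fold and 6.44-fold higher. Without replicate 3 the fold was 1.09.

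The WT signal of both proteases was dim. In the WT arrays between 22.5% and 26.7% of all probe sets lay below Mcpt1, and between 22.3% and 38.2% lay below Mcpt2. In Nod2-/- replicates 1 and 2 the shares were 58.3% and 40.9% for Mcpt1 and 34.7% and 39.2% for Mcpt2. Apart from Mcpt1 in replicate 1, these values also lay below the median of their array. In Nod2-/- replicate 3 the shares were 89.4% for Mcpt1 and 87.9% for Mcpt2. Signal over background was not measured, so whether WT crypt bases held any transcript of either protease was not tested.

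Serpina3n was at 5.53, 6.80 and 6.94 in WT replicates 1, 2 and 3, and at 7.63, 7.93 and 8.70 in Nod2-/- replicates 1, 2 and 3. WT replicate 1 was the lowest array and Nod2-/- replicate 3 the highest, and the groups did not overlap. The means were 8.09 ± 0.55 (SD, n = 3) in Nod2-/- and 6.43 ± 0.78 in WT, a difference of 1.66 or 3.16-fold. Against the WT mean, Nod2-/- replicates 1, 2 and 3 were 2.31-fold, 2.84-fold and 4.83-fold higher. The fold was 2.56 without Nod2-/- replicate 3 and 2.32 without WT replicate 1. In WT between 61.3% and 84.1% of probe sets lay below Serpina3n, so Serpina3n stood above the median of every WT array.

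**Figure D1:**
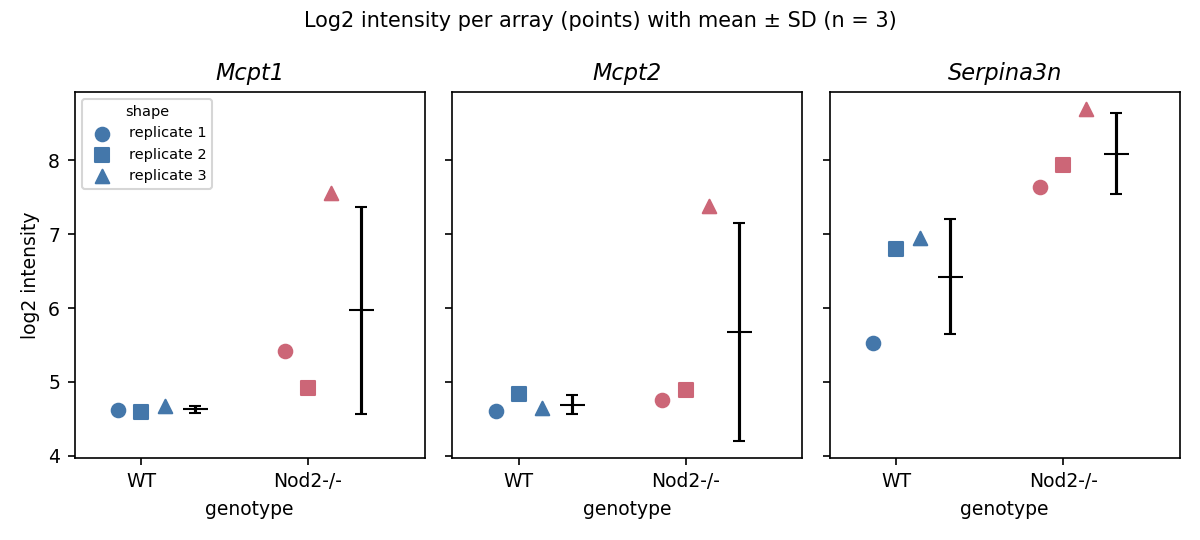
Log2 intensity (y axis) of Mcpt1, Mcpt2 and Serpina3n by genotype (x axis). Points are single arrays, with the replicate number as shape, and bars are mean ± SD (n = 3). Nod2-/- replicate 3 is at 7.56 for Mcpt1 and 7.38 for Mcpt2, apart from the other 5 arrays, while all 3 Nod2-/- arrays lie above the WT arrays for Serpina3n.

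All 3 members were at least 1.5-fold higher in Nod2-/-, as were 0.71% of all probe sets, and 2 of the 3 had arrays that did not overlap between genotypes, as did 3.42% of all probe sets in this direction. Nothing is read from these counts, since the authors' table from which the members come was selected on the same difference. With limma (Benjamini-Hochberg adjustment over all probe sets) 0 probe sets, or 0%, passed an adjusted p of 0.05, and 1106 had an unadjusted p under 0.05. An unpaired test of the kind named in the file headers, computed here over all probe sets, gave 1043 at that unadjusted level and also 0 after adjustment.

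With each array left out in turn, the log2 difference stayed above 0 for all 3 genes. It lay between 0.54 and 1.86 for Mcpt1, between 0.13 and 1.44 for Mcpt2 and between 1.22 and 1.92 for Serpina3n. The lowest value came without Nod2-/- replicate 3 for both proteases and without WT replicate 1 for Serpina3n.

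**Figure D2:**
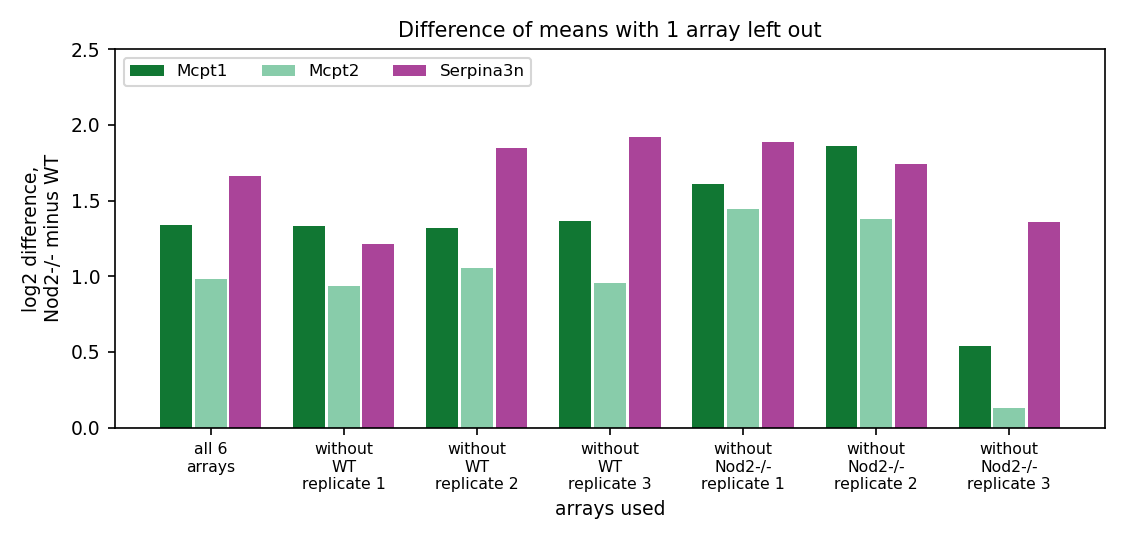
Log2 difference of means, Nod2-/- minus WT (y axis, from 0), with all 6 arrays and with each array left out (x axis), as bars for Mcpt1, Mcpt2 and Serpina3n. Without Nod2-/- replicate 3 the bars of the proteases fall to 0.54 and 0.13, while that of Serpina3n is 1.36.

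Headers of the authors' table hold a date-like number that replicate 1 of WT shares with replicate 1 of Nod2-/-, while replicates 2 and 3 share a different one. The sources used here do not give its meaning. For the pair of replicate 1 the log2 difference was 0.80 for Mcpt1, 0.16 for Mcpt2 and 2.10 for Serpina3n. For replicates 2 and 3 it was 1.60, 1.40 and 1.44. All 3 differences were thus above 0 for both numbers, with that of Mcpt2 near 0 for replicate 1.

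Relative to its own WT mean, the mean of the proteases was 0.43, 0.24 and 2.81 (log2) higher in Nod2-/- replicates 1, 2 and 3. Protease minus inhibitor on this scale was -0.78, -1.26 and 0.54 in the same arrays, and 0.84, -0.32 and -0.52 in WT replicates 1, 2 and 3. Its values in the genotypes overlapped. The WT level of the proteases was not shown to lie above background, and a floor in the signal would compress their folds but not those of a brighter gene, so these values do not rank the proteases against Serpina3n. The mean was -0.50 ± 0.93 (SD, n = 3) in Nod2-/-, with an SD of 0.73 among the WT arrays, and was thus smaller than the spread between arrays. It was -0.08 without WT replicate 1 and -1.02 without Nod2-/- replicate 3, and it was -1.62 for the pair of replicate 1 and 0.06 for replicates 2 and 3.

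Mcpt1 and Mcpt2 shared their high value in Nod2-/- replicate 3, at 2.93 and 2.69 (log2) above their WT means. Their likeness rests mainly on that array, since in Nod2-/- replicate 1 Mcpt1 was 0.79 above its WT mean and Mcpt2 0.07. In Nod2-/- replicates 2 and 3 their values relative to WT differed by 0.10 and 0.24 (log2), and in replicate 1 Mcpt1 was further above WT by 0.72. Related genes of the locus, such as Mcpt4 and Mcpt9, may share probe sequence with them, and this was not tested.

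The stand-alone rise of these genes in Nod2-/- replicate 3 was uncommon on the array. In that replicate 11 probe sets, or 0.0381%, were higher than in every other array by at least 1 on the log2 scale. At a gap of at least 2 there were 2, and they were those of Mcpt1 (2.14) and Mcpt2 (2.49). In the other 5 arrays between 14 and 38 probe sets stood highest by at least 1, and between 0 and 7 by at least 2. Nod2-/- replicate 3 therefore had fewer probe sets standing alone at a gap of 1 than any other array. This gap uses the same values as the choice of the members and is given as a description.

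Of the 11 probe sets, 6 carry 1 gene symbol, and they name 5 genes. Beside the proteases these were Nlrc5, a regulator of MHC class I genes (gap 1.82), Hmcn1, a matrix protein with 2 such probe sets (1.64 and 1.15), and Serpina10, a serpin that inhibits coagulation factor Xa (1.11). Likeness of pattern was measured as the root mean square distance between log2 profiles over the 6 arrays, each with its own mean taken off, among the genes with 1 symbol in the authors' table. The gene most like Mcpt1 was Mcpt2 (distance 0.27), followed by Nlrc5 (0.38), Hmcn1 (0.55), Serpina10 (0.57) and BC052040 (0.60). For Mcpt2 the order was Mcpt1 (0.27), Nlrc5 (0.32), Hmcn1 (0.45), Serpina10 (0.47) and H3c15, a histone gene (0.50). Nlrc5 was at 7.12 in Nod2-/- replicate 3 and between 4.56 and 5.30 in the other arrays.

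Other genes were most like Serpina3n. They were Rbm33, an RNA-binding protein (distance 0.41), Akip1, a protein that binds a subunit of protein kinase A (0.46), Sh3pxd2a, an adaptor of invasive cell protrusions (0.47), Retnlg, a resistin-like secreted protein (0.48), and Fam3b, a secreted cytokine-like protein (0.49). WT replicate 1 was lowest in all 5 of them, as in Serpina3n. Rbm33, for example, was at 5.41, 7.17 and 6.69 in WT replicates 1, 2 and 3 and at 7.45, 8.28 and 7.86 in the Nod2-/- replicates in the same order. All comparisons share the same 6 arrays, and the table was selected on the genotype difference, so likeness here is a description.

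**Figure D3:**
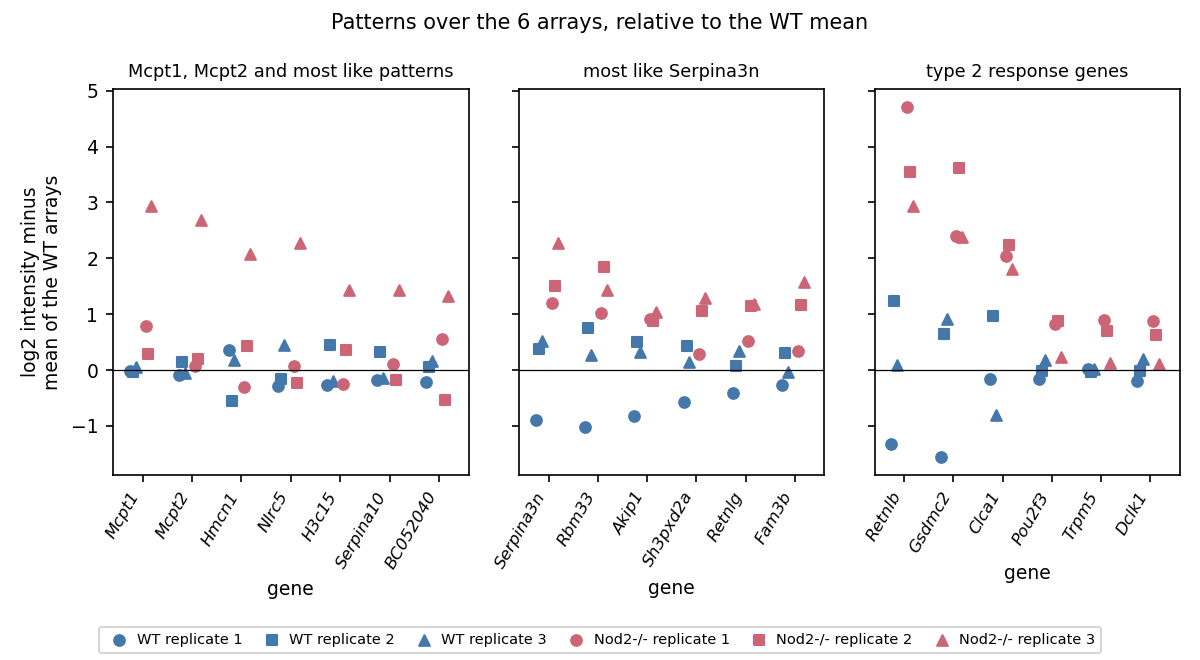
Log2 intensity minus the mean of the WT arrays (y axis) for single genes (x axis), with colour for genotype and shape for replicate. Left, Mcpt1, Mcpt2 and the genes most like them, with Nod2-/- replicate 3 highest. Middle, Serpina3n and the genes most like it, with WT replicate 1 lowest. Right, the 6 type 2 response genes named by 1 symbol, in all of which Nod2-/- replicate 3 is the lowest Nod2-/- array.

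Kit and Srgn, the other mast cell genes named with 1 symbol in the authors' table, did not have their highest value in Nod2-/- replicate 3. Of 24 mast cell genes 4 are so named, Mcpt1 and Mcpt2 included, and the other 20 have no probe set named for them alone here. The column headers of that table name cuts on fold and p-value between genotypes. A gene not so named may have missed these cuts, share a row with other symbols or lack a probe set of its own. Which of these holds for each of the 20 was not tested. Kit is the receptor for stem cell factor that mast cells need and Paneth cells also carry, and Srgn is the proteoglycan on which granule proteases are packed. Kit was at 7.85, 7.79 and 7.90 in WT replicates 1, 2 and 3 and at 8.69, 8.30 and 8.27 in the Nod2-/- replicates, 1.49-fold higher on average. Its arrays did not overlap, but Nod2-/- replicate 3 was the lowest of its group. Srgn was at 5.40, 6.26 and 6.51 in WT and at 5.89, 7.04 and 6.93 in Nod2-/-, 1.48-fold higher on average and with overlap. Neither passed limma's test over all probe sets (adjusted p = 1.00 for both). The median log2 difference of Kit and Srgn was 0.57, and 0.78 with the members included, which were chosen on this contrast. All 4 come from a table selected on the genotype difference, so a median away from the -0.01 of all 28853 probe sets was fixed by that choice. The 0.44 over the 1053 of the authors' table includes 400 with lower Nod2-/- means, so it is not a like comparison either. Nothing is read from these medians.

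A probe set shared by Tpsg1, a mast cell tryptase, and Cacna1h, a calcium channel, was highest in Nod2-/- replicate 1 (7.28), against 5.98 and 6.45 in replicates 2 and 3 and between 5.55 and 6.50 in WT. The other list genes, among them Cpa3, Tpsb2, Cma1, Mcpt4, Fcer1a, Ms4a2 and Hdc, are not named by 1 symbol in the authors' table. Rows with several symbols are not counted here. Of 10 mast cell markers other than the members only Kit is in the table under 1 symbol, with a linear intensity between 221 and 239 in WT and between 309 and 412 in Nod2-/-. The part of mast cell number in the protease values was not tested.

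Of 22 genes of the chymase locus and of granule proteases, Mcpt1 and Mcpt2 were the only ones named by 1 symbol in the authors' table. Gzma, Gzmb, Ctsg and Mcpt8 are not so named. Among the 10 genes nearest to Mcpt1 in RefSeq, Mcpt2 alone is in the table. Of 16 genes for the recruitment and differentiation of mucosal mast cells, which include Il9, Kitl and Tgfb1, 0 are in it under 1 symbol. Of 7 basophil and eosinophil markers and 8 markers of intraepithelial lymphocytes, 0 are in it under 1 symbol as well.

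Type 2 response genes of the epithelium, which rise with mucosal mast cells in worm infection, had 6 of 16 in the table under 1 symbol, all with higher means in Nod2-/- and 0 past limma's threshold (adjusted p = 1.00). In 6 of 6 Nod2-/- replicate 3 was the lowest Nod2-/- array, whereas it was the highest for Mcpt1, Mcpt2 and Serpina3n. For Gsdmc2 the margin was small, at 8.75 in Nod2-/- replicate 3 and 8.76 in replicate 1. Sprr2a1, Sprr2a2 and Sprr2a3 of this list lie in rows with several symbols and are left out of these counts. The Sprr2a probe sets that limma called only under other settings had log2 differences between 3.18 and 4.37 with all 6 arrays. Retnlb, a goblet cell product, was at 10.75, 9.58 and 8.97 in Nod2-/- replicates 1, 2 and 3, and Trpm5, a channel of tuft cells, was at 6.09, 5.90 and 5.34. The table holds 3.65% of all probe sets and was selected on the genotype difference, and 653 of its 1053 have higher Nod2-/- means, so the list counts are descriptions. Over those 653 probe sets replicate 3 was the lowest of its group in 38.4% and the highest in 25.4%. The difference in order between the proteases and these genes was not tested.

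Among 52 serpins and other protease inhibitors, Serpina3n had the largest difference of the 3 named by 1 symbol in the authors' table. That table holds 3.65% of all probe sets and was selected on the genotype difference. Serpina3n was chosen on the same difference, so nothing is read from its place or from the count. Wfikkn2, a secreted protein with protease inhibitor domains, was at 6.34, 6.52 and 6.36 in WT and at 7.70, 7.47 and 7.53 in Nod2-/-, 2.23-fold higher with no overlap (limma, adjusted p = 0.183). Serpina10 was at 5.16, 5.67 and 5.19 in WT and at 5.45, 5.16 and 6.78 in Nod2-/-. Its mean was 1.37-fold higher in Nod2-/-, and the log2 difference was -0.04 without Nod2-/- replicate 3 (limma, adjusted p = 1.00 with all arrays). None of the 5 Serpina3 genes next to Serpina3n in RefSeq is in the table.

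Acute phase genes are switched on by inflammatory cytokines through STAT3 and related factors. Of 26 such genes 9 were in the table under 1 symbol, Serpina3n included, all with higher means in Nod2-/- and 0 past limma's threshold. These counts stand beside the same share of 3.65% of all probe sets in the table, with 653 of its 1053 higher, and Serpina3n was chosen on this difference. The median log2 difference of the 8 without it was 0.72. The table's median of 0.44 includes 400 probe sets with lower Nod2-/- means, while all 8 are higher, so these medians are not a like comparison. The other 8 were Reg3b and Reg3g, antibacterial lectins, Socs3, a brake on cytokine signalling, Ifitm3, an antiviral membrane protein, C3, the central complement protein, Lrg1, a secreted glycoprotein, and the transcription regulators Bcl3 and Cebpd. Their folds lay between 1.36 and 3.68 (limma, adjusted p = 1.00 for each). Socs3 was at 5.26, 5.84 and 6.40 in WT replicates 1, 2 and 3 and at 5.52, 6.76 and 7.65 in Nod2-/-, and its second probe set was 1.64-fold higher with no overlap.

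WT replicate 1 was the lowest WT array in 8 of these 8 genes and in Serpina3n. Over the probe sets of the table with higher Nod2-/- means, this held for 57.3%. Without WT replicate 1 the median log2 difference of the 8 fell from 0.72 to 0.35, and that of Serpina3n was 1.22. By the brightest probe set of each gene, Reg3g alone of the other 8 had arrays that did not overlap between genotypes. Its lowest Nod2-/- array was at 11.75 and its highest WT array at 11.62. Over all probe sets 3.42% did not overlap in this direction. Serpina3n, which did not overlap either, was chosen on this contrast, so nothing is read from the count.

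Fibroblast and macrophage markers named in the table also had WT replicate 1 as their lowest WT array. So did 57.3% of the probe sets of the table with higher Nod2-/- means. The table was selected on the genotype difference, so this is a description. Of 8 fibroblast markers 5 are in the table, and their summed linear intensity was 819 in WT replicate 1, up to 1322 in the other WT arrays and between 1565 and 2174 in Nod2-/-. Of 8 macrophage and dendritic cell markers 2 are in it, Cd74 and C1qc, with a sum of 264 in WT replicate 1, up to 1465 in the other WT arrays and between 896 and 1575 in Nod2-/-. No probe set is at 0 on this linear scale. Without WT replicate 1 the log2 difference was -0.23 for Cd74 and 0.0012 for C1qc, so their place in the table rests on that array. Nod2-/- replicate 3, where the members were highest, had a fibroblast sum of 1565, close to that of Nod2-/- replicate 1 (1569). Its macrophage sum was 1221. The part of these cells in the values of Serpina3n and the proteases was not tested. Of 8 Paneth cell markers Mptx1 and Pnliprp2 are in the table under 1 symbol. Lyz1, Mmp7 and Defa24 are not, so the label of the captured cells was not checked by its defining genes. Of 7 goblet cell markers 4 are in the table, 2 with higher and 2 with lower means in Nod2-/-, and of 6 crypt stem cell markers 2 are in it, both with lower means, with 0 of these past limma's threshold. Of 4 plasma cell and 4 endothelial markers 0 are in it under 1 symbol. The marker counts of this paragraph all cover only probe sets named by 1 symbol.

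**Figure D4:**
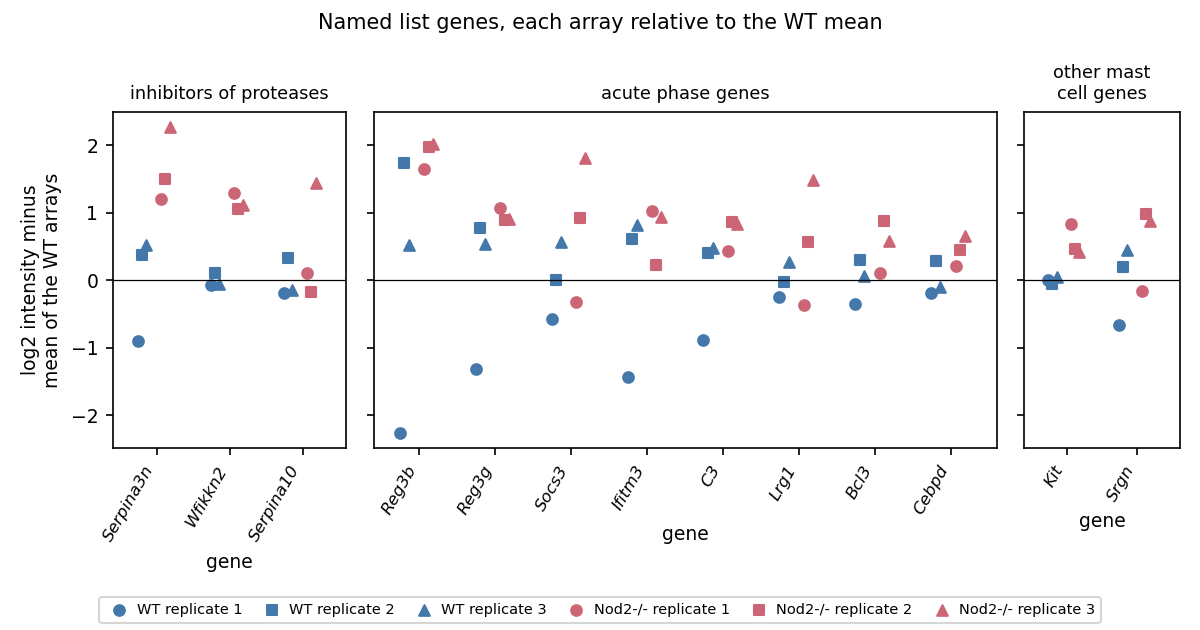
Log2 intensity minus the mean of the WT arrays (y axis) for the genes named in the authors' table (x axis) among protease inhibitors, acute phase genes and mast cell genes other than Mcpt1 and Mcpt2, with colour for genotype and shape for replicate. Nod2-/- replicate 3 is 2.27 above the WT mean for Serpina3n, WT replicate 1 is the lowest WT array for all acute phase genes, and Kit shows no separate Nod2-/- replicate 3.

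The median log2 intensity of the arrays lay between 5.11 and 5.15, and arrays correlated at 0.971 or more with each other across probe sets on the log2 scale, which are not independent replicates. With 3 arrays per genotype, their number limits the precision. Nod2 itself has no place in the authors' table, so the genotype labels were not checked against the targeted gene.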

How the data were processed

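Affymetrix MoGene 1.0 ST arrays (annotation release 31, mouse build mm9, per the file headers) were made from 100 ng of total RNA each. The authors deposited an intensity per probe set on a linear scale, and the submitters' processing notes name RMA. Their table of 1053 selected probe sets holds the same intensity in 1053 of them (relative tolerance 0.001). Per the file headers it also holds a ratio and a log2 value relative to the WT median, and fold, signed fold score and p-value columns, which the authors deposited and which were not used. That table names 855 probe sets by 1 symbol, 104 by several and 94 by none. Symbols were updated by Entrez number through RefSeq (GRCm38.p6), where 800 matched, and all other probe sets are unnamed here.

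Log2 was taken and all 28853 probe sets were fitted with limma 3.58.1 (R 4.3.3, lmFit and eBayes, genotype as the only term, no filter, Benjamini-Hochberg threshold 0.05), after the fit had been tested on simulated data. Python 3.11.15 was used for descriptions. The members and the 16 gene lists were chosen with earlier results of these data known. Named genes were the members, list genes with 1 symbol in the table (of several probe sets the brightest, up to 4 genes for lists of other cells), and for each member the 5 genes nearest in pattern. The labels do not say that arrays come from separate mice, so a p-value covers only the spread among the samples, which may be technical. Alternatives were 1 array left out, the replicate number or the date-like number as a block, values within each such number, centred arrays, a filter on dim probe sets, another prior, an offset of 16, linear means and an unpaired test of the kind the file headers name.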

Additional observations from a re-analysis of the deposited data

How the results depend on the processing

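The differences of Mcpt1, Mcpt2 and Serpina3n stayed above 0 under all 14 alternatives run for each and moved by less than the pooled SD between arrays. For the proteases that SD (0.99 for Mcpt1, 1.05 for Mcpt2) includes the spread made by Nod2-/- replicate 3. For Mcpt2 it exceeds the difference of 0.98, so even the fall to 0.13 without that array counted as within it. This SD therefore does not show that the protease differences are stable. Of the 14 alternatives, 3 could not move the differences, since a block leaves the difference unchanged in this balanced design and the authors' table holds the same intensities. With 1 array left out they lay between 0.54 and 1.86, between 0.13 and 1.44, and between 1.22 and 1.92 (log2). With means of linear intensities they were 1.82, 1.52 and 1.61, and with an offset of 16 they were 1.01, 0.76 and 1.48. Protease minus inhibitor (-0.50) changed sign within replicates 2 and 3 (0.0582) and with linear means (0.0584), was -1.62 within replicate 1, and lay between -1.02 and -0.08 with 1 array left out. The cause was not tested. Other mast cell genes at least 1.5-fold higher numbered 0, between 0 and 2 with 1 array left out, and 1 within replicates 2 and 3, within replicate 1 and with linear means, as Kit and Srgn lie just under that fold. Limma called 0 probe sets, between 0 and 2 with 1 array left out (2 without Nod2-/- replicate 1), 3 without dim probe sets and 3 with a trended and robust prior, and those called were Sprr2a probe sets.

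The replicate number as a block gave 0 calls, with a lowest adjusted p of 0.969 against 0.183 without it. Deviations of arrays with the same number correlated at 0.20, -0.02 and 0.06, so the numbers were not taken as pairs. Dim signal outside Nod2-/- replicate 3 limits what can be said of the proteases.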
